A study of Homo sapiens with 21 samples.

Results

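The 10 genes described here are endoplasmic reticulum (ER) chaperones and targets of the transcription factor XBP1, namely HSPA5, HSP90B1, XBP1, DNAJB9, SDF2L1, HERPUD1, EDEM1, PDIA4, CRELD2 and MANF. They were chosen by symbol, through the Ensembl identifiers of the count table, and 10 of 10 were found among its 42339 genes. RNA-seq was performed on BT-549 cells, a triple-negative breast cancer (TNBC) line, in 21 libraries from 7 groups with 3 cultures in each. The study asked how the oncogenic protein MUC1-C and the transcription factor MYC shape gene expression in cells grown as mammospheres (3D), which it uses to enrich for cancer stem cells. The 2D cells were grown in RPMI1640 with serum and insulin. The 3D cells were passage 6 mammospheres in MammoCult medium on ultra-low attachment plates, so that culture format and medium cannot be told apart. Further 3D cells received 0.75 µmol/L GO-203, a peptide inhibitor of MUC1-C. The 3D cells without GO-203 are labelled as control and described in the study as vehicle-treated, with the vehicle not named. BT-549/tet-MUC1shRNA mammospheres at passage 6 and BT-549/tet-MYCshRNA mammospheres at passage 8 carried a doxycycline-inducible shRNA and were treated with 0.1% DMSO as vehicle or with 500 ng/ml doxycycline (DOX). Each construct was 1 shRNA in 1 cell line, and no cells with a control shRNA were analysed here, so that the action of DOX itself and of silencing cannot be told apart.

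The ER folds secreted and membrane proteins, and unfolded protein there activates the unfolded protein response through the sensors IRE1 (gene ERN1), PERK (EIF2AK3) and ATF6. IRE1 splices the XBP1 transcript to make an active transcription factor, PERK slows translation and raises ATF4 and its targets, and cleaved ATF6 enters the nucleus. XBP1 and ATF6 bind ER stress response elements (ERSEs) with the factor NF-Y and raise chaperones, components of ER-associated degradation (ERAD), and XBP1 itself. Gene counts do not separate the spliced from the unspliced XBP1 transcript, so splicing was not measured. The activity of PERK and the cleavage of ATF6 were not measured either.

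Of the 10 members, 6 hold such an element before a RefSeq start, and these are shown as the sequences through which the named factors are known to act. As the members were chosen as XBP1 targets, their share is a description and not independent of that choice. In the windows from 250 bases before to 50 bases after each RefSeq start (GRCh38.p14), an ERSE was searched on both strands as CCAAT, 9 bases of any kind and CCACG. It was found in 4 of 10 members, HSPA5, HSP90B1, XBP1 and CRELD2, and in 27 of 35116 windows of the same length (0.0769%). An ERSE-II, searched as ATTGG, 1 base and CCACG, was found in SDF2L1 and HERPUD1 and in 0.0541% of windows. Among 15 other ER folding factors with a RefSeq window, 4 held an ERSE and 1 an ERSE-II. The sequences below are written 5′ to 3′ on the strand of the gene, and capitals mark both parts of each element, which read as CGTGG and ATTGG, or CGTGG and CCAAT, where the element lies on the opposite strand. In HSP90B1 and CRELD2 the elements lie downstream of the outermost GENCODE 44 gene start, which is that of another transcript.

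HSPA5 (chr9:125241376-125241424, minus strand): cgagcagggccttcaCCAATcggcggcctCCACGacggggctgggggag
HSP90B1, upstream element (chr12:103930211-103930239, plus strand): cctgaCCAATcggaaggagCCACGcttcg
HSP90B1, downstream element (chr12:103930316-103930344, plus strand): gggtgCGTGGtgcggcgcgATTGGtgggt
XBP1 (chr22:28800588-28800636, minus strand): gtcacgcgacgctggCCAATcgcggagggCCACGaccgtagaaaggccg
CRELD2 (chr22:49918539-49918587, plus strand): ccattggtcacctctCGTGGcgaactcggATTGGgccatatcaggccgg
SDF2L1 (chr22:21642099-21642139, plus strand): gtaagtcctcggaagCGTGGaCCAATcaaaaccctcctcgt
HERPUD1 (chr16:56932010-56932050, plus strand): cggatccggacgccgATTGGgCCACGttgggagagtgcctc

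DNAJB9, EDEM1, PDIA4 and MANF held neither element in these windows. The CCACG part alone overlaps both elements and was present in 10 of 10 members and in 38.1% of all windows. The longer element TGACGTG, a known XBP1 binding sequence, was in 0 of 10 members and in 1.97% of windows. These matches describe letters in a window and not binding of a factor.

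Library totals ran from 38026597 to 99751717 counts, and the members' own counts ran from 221 for CRELD2 to 120379 for HSPA5. Counting error was thus small for the abundant members, but less so for CRELD2 and SDF2L1, whose lowest counts were 221 and 235. The p-values set each difference against counting error and the spread between cultures together. Each targeted gene fell in its own experiment. MUC1 fell from 89.4 to 21.6 CPM (counts scaled to library size and TMM factors) with DOX in tet-MUC1shRNA cells, a log2 fold change of -2.06 ± 0.07 (SE, edgeR's quasi-likelihood test, adjusted p = 3.0e-15), and MYC fell from 418 to 275 CPM with DOX in tet-MYCshRNA cells (-0.62 ± 0.08, adjusted p = 9.1e-05). The other gene rose in both experiments, MUC1 from 69.4 to 168 CPM with MYC silencing (1.25 ± 0.11, adjusted p = 5.1e-06) and MYC from 242 to 290 CPM with MUC1 silencing (0.25 ± 0.04, adjusted p = 5.0e-05). The mesenchymal gene VIM was at 1083 to 2479 CPM over the group means, whereas the epithelial markers EPCAM, CDH1, KRT8 and KRT18 were at 0 to 1.45 CPM and the leukocyte markers PTPRC and CD3E at 0 to 1.28 CPM. ZEB1, also mesenchymal, was at 95.7 to 320 CPM. In tet-MUC1shRNA cells ZEB1 was at 320 CPM with vehicle and 121 CPM with DOX, and VIM at 1083 and 1233 CPM. There CDH1, KRT8 and KRT18 were at 0.0302, 0.0414 and 0.0376 CPM with vehicle and at 0.313, 1.36 and 0.898 CPM with DOX. Of the receptors that define TNBC by their absence, ESR1 and PGR were at 0 to 0.974 CPM and ERBB2 at 20.1 to 36.1 CPM. The endothelial marker PECAM1 was at 0.0118 CPM in 2D cells and at 3.02 to 9.40 CPM in the mammosphere groups, and the matrix gene FN1 at 460 and at 5209 to 12523 CPM. The share of counts from mitochondrial genes was 2.60% to 2.78% in vehicle-treated and 6.36% to 6.72% in DOX-treated tet-MUC1shRNA libraries, 5.22% to 5.24% in 2D, 2.31% to 2.72% in 3D and 3.34% to 4.40% in GO-203-treated libraries, and 3.37% to 4.08% with vehicle and 3.96% to 5.07% with DOX in tet-MYCshRNA libraries. Its part in the results below was not tested, nor was that of PECAM1, ZEB1 or the epithelial markers. In such bulk samples, fewer cells of a kind and less RNA per cell cannot be told apart.

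HSPA5 encodes BiP, the Hsp70 chaperone of the ER lumen and the most abundant member by CPM in 6 of the 7 groups. Its levels, in CPM scaled by TMM factors over the 21 libraries, were highest in vehicle-treated tet-MUC1shRNA cells at 2609 ± 301 (SD, n = 3) and lowest in the same cells treated with DOX at 724 ± 44.7, a ratio of 3.60. The 3D cells were at 1588 ± 43.1, the GO-203-treated cells at 1462 ± 126, the 2D cells at 1203 ± 50.6, and the tet-MYCshRNA cells at 1111 ± 32.6 with vehicle and 1014 ± 31.5 with DOX. Of the neighbours in this order, the libraries of the 3D and GO-203-treated cells overlapped, and the others did not.

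HSP90B1 encodes GRP94, the Hsp90 chaperone of the ER lumen, and stood in another order. It was highest in 2D cells at 1435 ± 147 CPM, exceeding HSPA5 there, and lowest in DOX-treated tet-MUC1shRNA cells at 258 ± 14.1 CPM, a ratio of 5.57. The ratio of HSPA5 to HSP90B1 in CPM was 0.842 ± 0.0517 (SD, n = 3) in 2D cells, 1.51 ± 0.0379 in 3D cells and 4.52 ± 0.402 in vehicle-treated tet-MUC1shRNA cells. Both chaperones together took 67.1% to 67.4% of the members' summed CPM in DOX-treated tet-MUC1shRNA libraries and 71.9% to 79.7% in the other 18 libraries.

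Per kilobase of exon, HSPA5 was the highest member in all 7 groups, at 111 to 400 CPM per kb. The lengths are the union of exons over all GENCODE 44 transcripts of a gene, at 6.53 kb for HSPA5, 13.1 kb for HSP90B1 and 3.3 kb for PDIA4. The order between genes thus depends on which transcripts are annotated, and not on those the cells express. HSP90B1 ranged from 19.7 to 110 CPM per kb and PDIA4, an ER protein disulfide isomerase, from 42.3 to 126. CRELD2, a secreted disulfide isomerase-like factor, was the lowest member in all 7 groups, at 1.23 to 3.11 CPM per kb, and SDF2L1, which works with BiP, was at 5.43 to 12.6, DNAJB9 at 5.73 to 30.5 and HERPUD1 at 5.91 to 19.6. XBP1 itself was at 19.1 to 38.2 CPM per kb.

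**Figure D1:**
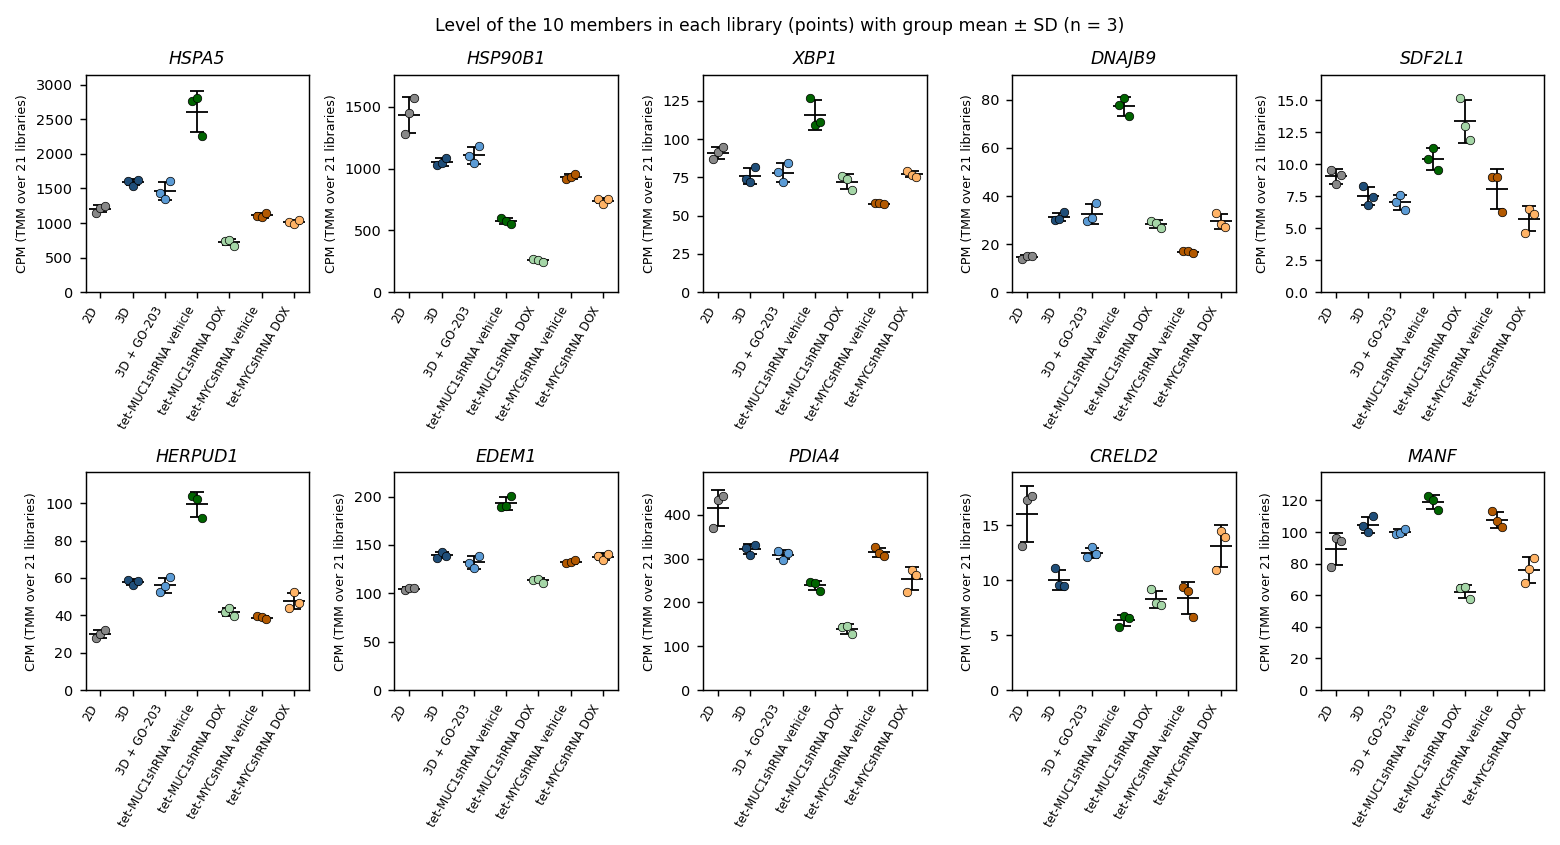
Level of each member in CPM (vertical axis, from 0, a separate scale per gene) in the 7 groups, with 1 point per library and bars for the mean ± SD of 3 libraries. HSPA5, XBP1, DNAJB9, HERPUD1, EDEM1 and MANF are highest in vehicle-treated tet-MUC1shRNA cells, whereas HSP90B1, PDIA4 and CRELD2 are highest in 2D cells and SDF2L1 in DOX-treated tet-MUC1shRNA cells.

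DNAJB9 and HERPUD1 followed a similar course over the groups. DNAJB9 (ERdj4), a BiP co-chaperone that also holds IRE1 in check, ran from 14.6 CPM in 2D cells to 77.3 CPM in vehicle-treated tet-MUC1shRNA cells, a ratio of 5.31. HERPUD1, a membrane component of the ERAD machinery, ran from 29.9 to 99.4 CPM between the same groups, a ratio of 3.33. EDEM1, which sends misfolded glycoproteins to ERAD, varied least, by a ratio of 1.85. Over the 21 libraries, which include 7 treatment groups and are not independent points, the log2 CPM of HSP90B1 and PDIA4 correlated with r = 0.98, of DNAJB9 and HERPUD1 with r = 0.96, and of HSP90B1 and SDF2L1 with r = -0.62. The median over the 45 pairs of members was 0.20, with 27 pairs positive. Among the 8838 genes ranked by likeness, those most like HSPA5 included ZDHHC9 (r = 0.975), BTF3L4 (0.973), CCNG1 (0.968) and EIF1 (0.940), and those most like XBP1 were COG6 (0.956), YIPF5 (0.955), TMED7 (0.913), CCNI (0.912) and FAM8A1 (0.905).

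**Figure D2:**
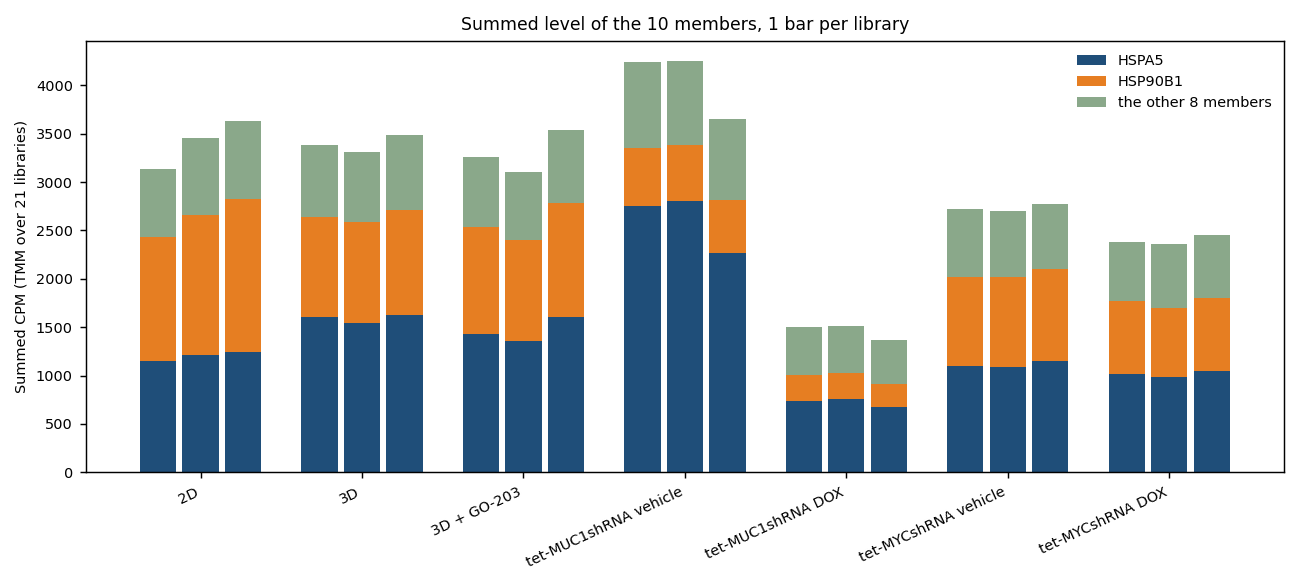
Summed CPM of the 10 members in each of the 21 libraries (vertical axis, from 0), with HSPA5, HSP90B1 and the other 8 members stacked. DOX-treated tet-MUC1shRNA libraries sum to 1363 to 1516 CPM, below all other libraries, which sum to 2362 to 4249 CPM.

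Silencing MUC1-C was accompanied by lower levels of most of these genes. In tet-MUC1shRNA cells, 8 of 10 members fell with DOX and 2 rose at an adjusted p below 0.1 over all genes tested, and 10 of 10 had vehicle and DOX libraries that did not overlap. Among the 19220 genes tested, 31.6% were downregulated and 30.7% upregulated by the same rule, and 61.5% did not overlap. The median log2 fold change was -0.86 for the members and 0.02 for all genes tested. The summed level of the members was 4047 ± 341 CPM (SD, n = 3) with vehicle and 1461 ± 84.7 CPM with DOX, and the other 8 members without HSPA5 and HSP90B1 summed to 860 ± 24.2 and 479 ± 26.9 CPM.

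Gene positions are those of GENCODE 44 on GRCh38, and identifiers are given without their version. HSPA5 (ENSG00000044574, chr9:125234853-125241382, minus strand) was at 2756, 2808 and 2264 CPM with vehicle and at 740, 759 and 674 CPM with DOX. All vehicle libraries exceeded all DOX libraries, with the third vehicle culture below the other two. The log2 fold change was -1.86 ± 0.06 (SE, adjusted p = 5.9e-16), which made HSPA5 the single member past an absolute log2 fold change of 1.5, against 8.82% of all genes tested. HSP90B1 (ENSG00000166598, chr12:103930107-103953931, plus strand) was at 600, 576 and 555 CPM with vehicle and at 269, 263 and 242 CPM with DOX (-1.17 ± 0.04, adjusted p = 2.9e-15). Of its exon bases, 6.95% lie opposite exons of other genes, and how the counting treated strand is not given in the sources used here. PDIA4 (ENSG00000155660, chr7:149003062-149028662, minus strand) fell from 246, 244 and 227 CPM to 145, 147 and 127 CPM (-0.79 ± 0.05, adjusted p = 9.5e-12).

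DNAJB9 (ENSG00000128590, chr7:108569867-108574850, plus strand) was at 77.9, 80.8 and 73.2 CPM with vehicle and at 29.7, 28.7 and 26.6 CPM with DOX. The groups were far apart relative to their spread, with a log2 fold change of -1.46 ± 0.06 (adjusted p = 6.8e-15). The ERAD components fell as well. HERPUD1 (ENSG00000051108, chr16:56932142-56944864, plus strand) went from 104, 102 and 91.9 CPM to 41.9, 43.8 and 39.5 CPM (-1.26 ± 0.05, adjusted p = 5.1e-14). EDEM1 (ENSG00000134109, chr3:5187646-5219958, plus strand), with 9.37% of its exon bases opposite another gene, went from 189, 190 and 201 CPM to 114, 115 and 111 CPM (-0.78 ± 0.04, adjusted p = 2.9e-12).

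MANF (ENSG00000145050, chr3:51385291-51389397, plus strand), a secreted factor that binds BiP, was at 123, 120 and 114 CPM with vehicle and at 64.4, 65.0 and 57.3 CPM with DOX (-0.94 ± 0.05, adjusted p = 1.1e-12). XBP1 (ENSG00000100219, chr22:28794555-28800597, minus strand) was at 127, 109 and 111 CPM with vehicle and at 75.7, 74.3 and 66.8 CPM with DOX. Its change of -0.69 ± 0.05 (adjusted p = 8.2e-10) was the smallest of the 8 decreases. HSPA5 and XBP1 each have 1 annotated pseudogene that carries the gene's symbol. Pseudogenes under other names were not searched for, in HSP90B1 or any other member. How reads shared with pseudogenes were counted is not given in the sources used here.

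The members that rose were the least abundant by CPM in these cells. SDF2L1 (ENSG00000128228, chr22:21642302-21644299, plus strand) was at 10.4, 11.3 and 9.54 CPM with vehicle and at 15.2, 13.0 and 11.9 CPM with DOX (0.35 ± 0.10, adjusted p = 0.00390). CRELD2 (ENSG00000184164, chr22:49918167-49927540, plus strand) was at 5.73, 6.74 and 6.54 CPM with vehicle and at 9.16, 7.90 and 7.75 CPM with DOX (0.37 ± 0.11, adjusted p = 0.00697). In both genes the lowest DOX library lay above the highest vehicle library by less than the range of the DOX libraries.

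With library size alone as the scaling, the median over all genes moved from 0.02 to 0.19 and the share of calls that were upregulated from 49.3% to 64.4%, while the members stayed at 8 down and 2 up. The vehicle-treated tet-MUC1shRNA cells themselves differed from 3D cells in these genes, as the plot of levels shows. Set against 3D cells, in a comparison added after the data were seen, DOX-treated tet-MUC1shRNA cells had 9 members lower and 1 higher, against 34.6% and 34.5% of the 19679 genes tested. The value then moved to -1.19 for HSPA5, -2.09 for HSP90B1, -0.20 for DNAJB9, -0.52 for HERPUD1, -0.35 for EDEM1, -1.26 for PDIA4, 0.78 for SDF2L1 and -0.13 for XBP1 (adjusted p = 0.0666), and it turned to -0.33 for CRELD2.

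**Figure D3:**
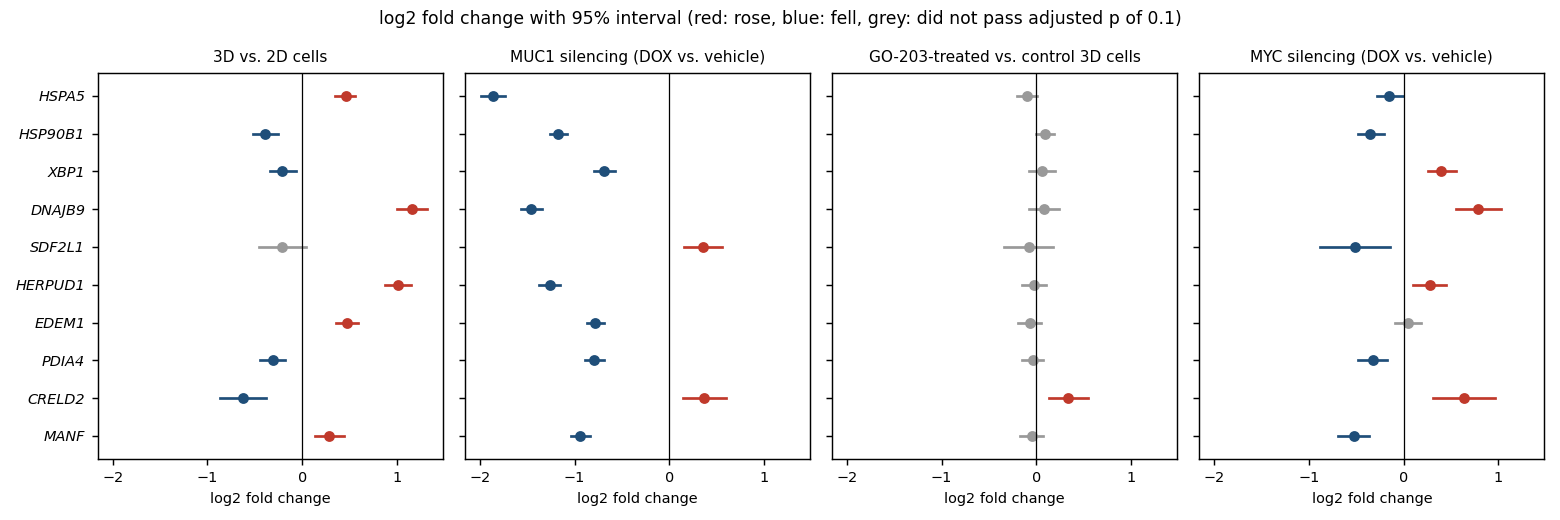
log2 fold change of each member (horizontal axis) with its 95% interval in the 4 comparisons, in red where it rose, blue where it fell and grey where it did not pass an adjusted p of 0.1. The decreases on MUC1 silencing reach -1.86 for HSPA5, whereas all values with GO-203 lie between -0.10 and 0.33.

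The other genes of the response were taken as lists picked by function. Of 10 sensors and transcription factors, 8 fell and 2 rose on MUC1 silencing, with a median of -0.34. ERN1 fell by 1.0 on the log2 scale (adjusted p = 5.0e-09) and EIF2AK3 by 0.41 (2.4e-04), whereas ATF6 rose by 0.41 (8.7e-08) and NFYA, a subunit of NF-Y, by 0.14 (0.0144). All 8 genes listed as PERK output fell, with a median of -1.12. They included ATF4 (-0.75), DDIT3, the proapoptotic factor CHOP (-1.23), and TRIB3, a pseudokinase (-1.45). Whether PERK acted on them was not tested. The lists were not tested against 3D cells either. Mean levels with DOX were above those of 3D cells for ERN1 (8.12 and 6.82 CPM), EIF2AK3 (15.1 and 12.9 CPM) and ATF6. They were below for ATF4, DDIT3 and TRIB3, but not for every gene listed as PERK output.

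Of 16 other ER folding factors, 12 fell and 1 rose, with a median of -0.63. ERO1A, the oxidase that recharges protein disulfide isomerases, fell by 2.13, while DNAJB11, a BiP co-chaperone, rose by 0.15 (adjusted p = 0.0444). ERAD was mixed, with 8 genes down and 5 up of 14 and a median of -0.15. Its scaffold SEL1L fell by 0.85. Of 16 translocon and secretory genes, 13 fell and 1 rose, with a median of -0.38, from -1.54 for SEC61G to 0.34 for SRPRB.

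**Figure D4:**
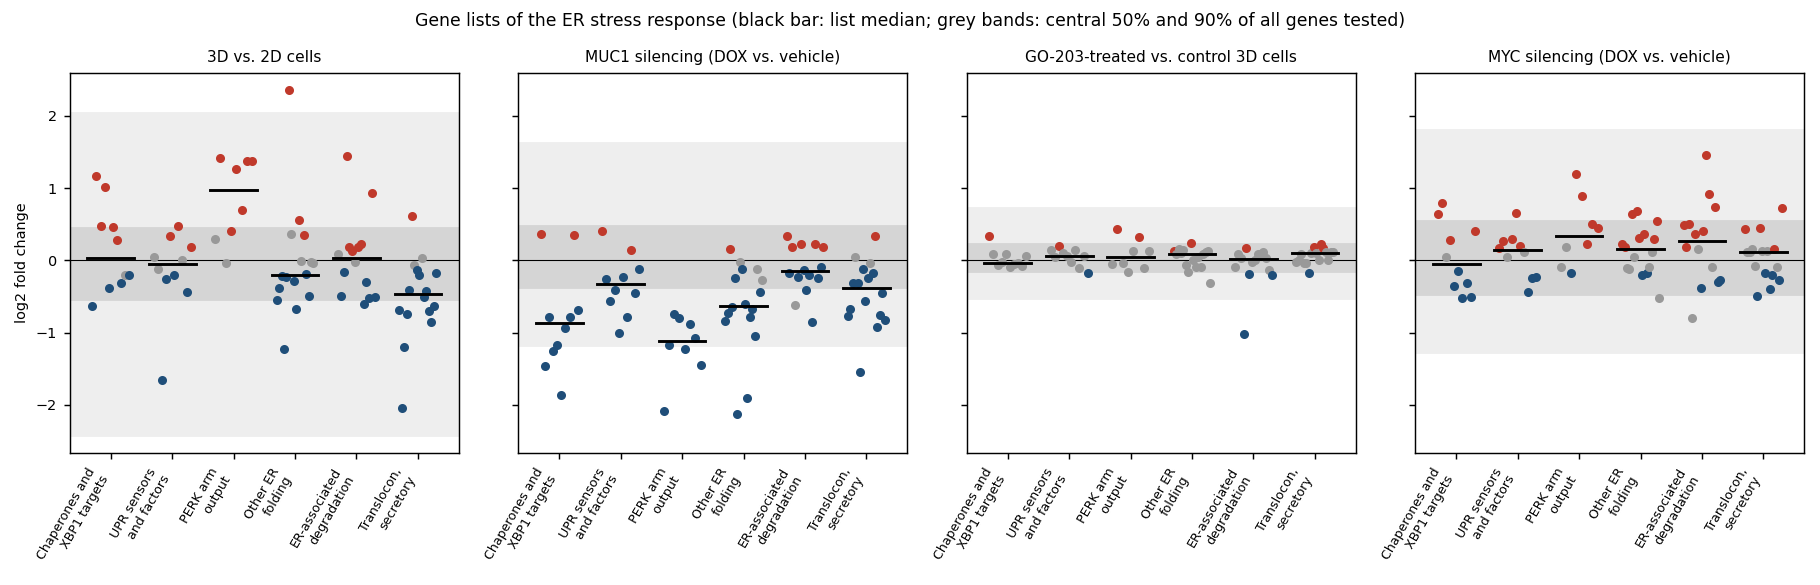
log2 fold change of each gene (points) in the members and 5 lists of the ER stress response (horizontal axis) for the 4 comparisons, with the list median as a black bar and the central 50% and 90% of all genes tested as grey bands. Red points rose, blue points fell and grey points did not pass. The PERK output has a median of 0.97 in 3D vs. 2D cells and of -1.12 on MUC1 silencing.

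In 3D vs. 2D cells, the members moved in both directions. 5 of 10 were upregulated, 4 were downregulated and SDF2L1 did not pass (-0.21 ± 0.12, adjusted p = 0.134), with 0 past a log2 fold change of 1.5. Of the 19190 genes tested, 32.0% were upregulated, 31.7% were downregulated and 16.2% were past that fold. The median was 0.04 for the members and -0.01 for all genes, and the groups did not overlap for 10 of 10 members and for 64.1% of genes. The summed level of the members was 3408 ± 256 CPM (SD, n = 3) in 2D and 3392 ± 85.9 CPM in 3D cells.

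The upregulated members included the ERAD and BiP co-chaperone genes. DNAJB9 was at 13.7, 15.1 and 14.9 CPM in 2D and at 30.0, 30.6 and 33.2 CPM in 3D cells, the largest change among the members (1.16 ± 0.08, adjusted p = 1.6e-09). HERPUD1 was at 27.7, 29.9 and 32.1 CPM in 2D and at 58.8, 56.2 and 58.5 CPM in 3D cells (1.01 ± 0.07, adjusted p = 1.2e-09). For both genes the highest 2D library lay well below the lowest 3D library. EDEM1 rose by 0.47 ± 0.05, HSPA5 by 0.46 ± 0.05 and MANF by 0.28 ± 0.07, with adjusted p-values of 1.1e-06, 5.1e-07 and 0.00292.

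The downregulated members were led by CRELD2, at 13.1, 17.3 and 17.7 CPM in 2D and 11.1, 9.58 and 9.43 CPM in 3D cells (-0.63 ± 0.11, adjusted p = 1.9e-04). HSP90B1 was at 1282, 1450 and 1574 CPM in 2D and at 1034, 1043 and 1089 CPM in 3D cells (-0.39 ± 0.06, adjusted p = 4.1e-05). HSPA5 and HSP90B1, both chaperones of the ER lumen, moved in opposite directions here. PDIA4 fell by 0.31 ± 0.06 (adjusted p = 4.4e-04). XBP1 was at 87.0, 91.7 and 94.7 CPM in 2D and at 74.1, 72.1 and 81.8 CPM in 3D cells (-0.21 ± 0.06, adjusted p = 0.0103). Without the second 3D library it no longer passed (-0.15, adjusted p = 0.102).

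Set against 2D cells in place of the 3D cells, vehicle-treated tet-MUC1shRNA mammospheres had 7 members higher and 3 lower, against 36.1% and 37.8% of the 19018 genes tested. DNAJB9 reached 2.45, HERPUD1 1.77, HSPA5 1.16, EDEM1 0.93, MANF 0.45, PDIA4 -0.76, HSP90B1 -1.27 and CRELD2 -1.30, and XBP1 turned to 0.38 (adjusted p = 3.9e-05). The direction of XBP1 between 2D and mammosphere culture thus differed between the 3D and the vehicle-treated tet-MUC1shRNA cells. These also differed in the construct, and whether the vehicle of the 3D cells held DMSO is not given. Vehicle-treated tet-MYCshRNA mammospheres were not tested against 2D cells. Their mean was below that of 2D cells for HSPA5 (1111 and 1203 CPM), XBP1 (57.8 and 91.1 CPM), HSP90B1, SDF2L1, PDIA4 and CRELD2. It was above for DNAJB9, HERPUD1, EDEM1 and MANF.

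Of the pathway lists in 3D vs. 2D cells, the PERK output had 6 of 8 genes up and 0 down, with a median of 0.97. ATF3, a stress-induced transcription factor, rose by 1.42 and DDIT3 by 1.26 (adjusted p = 2.9e-05), whereas ATF4 itself was at -0.04 (0.543). The sensors split into 3 up and 4 down of 10 (median -0.06), with ERN1 up by 0.33, EIF2AK3 at -0.26 (adjusted p = 0.0317), ATF6 at 0.05 (0.485), MBTPS2, a protease that cleaves ATF6, up by 0.47, and CREB3L2, a membrane-bound factor of the secretory pathway, at -1.66. The other folding factors had 3 up and 9 down of 16 (median -0.20), from ERO1A at 2.35 to DNAJC10, an ER disulfide reductase, at -1.23. ERAD had 6 up and 6 down of 14 (median 0.03), and among those with a mean of at least 10 CPM the ubiquitin-conjugating enzyme UBE2J1 was highest at 0.93 and SEL1L lowest at -0.60. The translocon and secretory list had 1 up and 13 down of 16 (median -0.47), led by SEC24D, a COPII coat subunit, at -2.05.

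With GO-203, CRELD2 was the single member to pass the test. It was at 11.1, 9.58 and 9.43 CPM in control and at 12.1, 13.0 and 12.4 CPM in GO-203-treated 3D cells, without overlap (0.33 ± 0.10, adjusted p = 0.0210). 1 of 10 members rose, 0 fell and 0 were past a log2 fold change of 1.5, against 11.1%, 12.9% and 0.757% of the 18488 genes tested. The median was -0.03 for the members and 0.02 for all genes, and 34.0% of genes did not overlap. These 3D libraries are also those of the comparison with 2D cells, and a fit on all 21 libraries gave 0.30 for CRELD2 with an adjusted p of 0.119.

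The other 9 members had narrow intervals around 0. HSPA5 was at 1604, 1540 and 1621 CPM in control and 1432, 1354 and 1600 CPM in treated cells, which overlapped (-0.10, 95% interval -0.21 to 0.01, adjusted p = 0.194). Without the third GO-203-treated library it passed at -0.17 (adjusted p = 0.0208), and without the second HSP90B1 passed at 0.13 (0.0471) from 0.09. XBP1 was at 0.06, with an interval of -0.08 to 0.20. The widest interval of these 9 was that of SDF2L1, from -0.34 to 0.17, so that changes of the size seen in HSPA5 or DNAJB9 on MUC1 silencing lie outside the intervals of all 9. MUC1 itself was at 0.33 ± 0.07 (adjusted p = 0.00191).

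The difference between MUC1 silencing and GO-203 treatment, tested as an interaction over 12 libraries, passed for 9 of 10 members and for 44.9% of the 20829 genes tested. It was -1.75 ± 0.09 for HSPA5 (adjusted p = 1.5e-14), -1.53 ± 0.10 for DNAJB9 (2.5e-12) and 0.44 ± 0.15 for SDF2L1 (0.0232). CRELD2 was the exception, at 0.04 with a 95% interval of -0.26 to 0.33. Agent and control cells also differed between these experiments. So did the share of all genes past the fold rule, at 8.82% on MUC1 silencing and 0.757% with GO-203. The lists moved little with GO-203, with medians between 0.02 for ERAD and 0.09 for both the other folding factors and the translocon list. Of the sensors, 1 of 10 rose and 1 fell (median 0.06), with ERN1 at 0.06, EIF2AK3 at 0.10 and ATF6 at 0.14, none of which passed. The PERK output had 2 of 8 up (median 0.04), namely ATF3 at 0.43 and PPP1R15A, which restores translation, at 0.32, whereas ATF4 was at -0.04 and DDIT3 at 0.13. Of the others, 2 of 16 folding factors rose and 0 fell, 1 of 14 ERAD genes rose and 3 fell, and 3 of 16 translocon genes rose and 1 fell.

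Silencing MYC split the members. With DOX in tet-MYCshRNA cells, 4 of 10 rose, 5 fell and EDEM1 did not pass (0.05 ± 0.06, 95% interval -0.09 to 0.18), with 0 past a log2 fold change of 1.5. Of the 19951 genes tested, 30.3% rose, 28.1% fell, 10.5% were past that fold and 59.2% did not overlap. The median was -0.05 for the members and 0.01 for all genes, and the summed level was 2730 ± 36.0 CPM (SD, n = 3) with vehicle and 2398 ± 49.3 CPM with DOX.

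DNAJB9 was at 17.1, 17.3 and 16.2 CPM with vehicle and at 33.0, 28.3 and 27.0 CPM with DOX, and rose by 0.79 ± 0.11 (adjusted p = 1.3e-04). XBP1 was at 58.0, 58.1 and 57.4 CPM with vehicle and at 79.1, 76.8 and 75.4 CPM with DOX (0.40 ± 0.07, adjusted p = 4.7e-04). The vehicle libraries of XBP1 were the lowest of the 21 libraries and nearly equal. CRELD2, at 9.36, 8.99 and 6.67 CPM with vehicle and 10.9, 14.5 and 13.9 CPM with DOX, rose by 0.64 ± 0.15 (adjusted p = 0.00403), and HERPUD1 rose by 0.28 ± 0.08 (adjusted p = 0.0141).

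The decreases were led by MANF, at 113, 107 and 103 CPM with vehicle and 67.5, 76.6 and 83.6 CPM with DOX (-0.52 ± 0.07, adjusted p = 1.7e-04). SDF2L1 was at 9.01, 9.0 and 6.30 CPM with vehicle and 4.65, 6.49 and 6.10 CPM with DOX, which overlapped, at -0.51 ± 0.17 (adjusted p = 0.0242). HSP90B1 fell by 0.35 ± 0.06 (adjusted p = 6.9e-04) and PDIA4 by 0.32 ± 0.07 (adjusted p = 0.00270). HSPA5 was at 1099, 1086 and 1148 CPM with vehicle and 1018, 981 and 1043 CPM with DOX (-0.15 ± 0.06, adjusted p = 0.0631). This call was lost in a fit of all 21 libraries (adjusted p = 0.129) and without the third vehicle, the second DOX or the third DOX library (adjusted p = 0.135, 0.127 and 0.113).

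**Figure D5:**
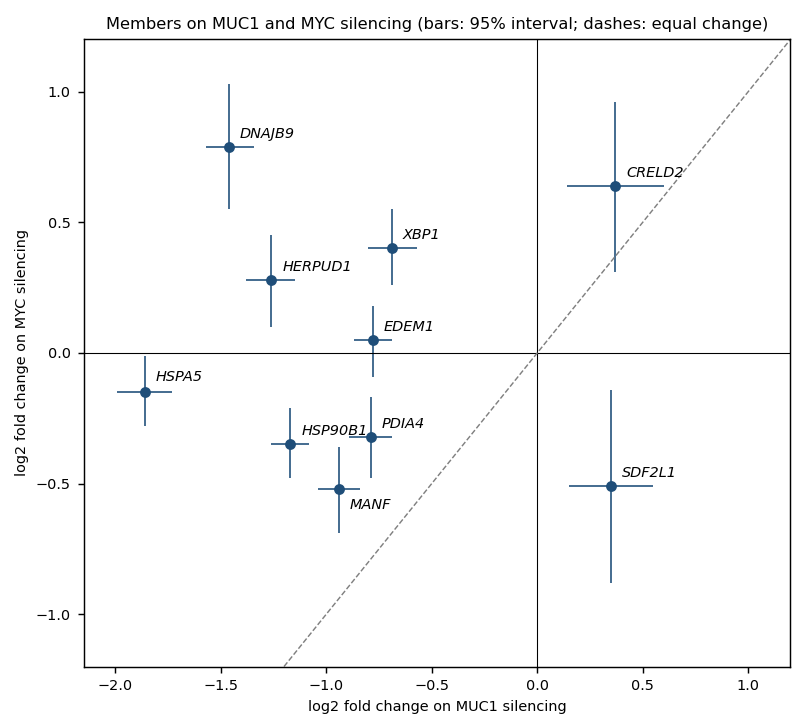
log2 fold change of each member on MUC1 silencing (horizontal axis) and on MYC silencing (vertical axis), with 95% intervals and a dashed line of equal change. DNAJB9, XBP1 and HERPUD1 lie at the upper left, lower with MUC1 and higher with MYC silencing, SDF2L1 lies at the lower right, and CRELD2 is higher in both.

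Comparing both silencing experiments, the interaction over 12 libraries passed for 9 of 10 members and for 52.9% of the 21585 genes tested. The largest difference was that of DNAJB9, at -2.26 ± 0.12 (adjusted p = 4.1e-11), followed by HSPA5 at -1.73 ± 0.10 (1.0e-10), HERPUD1 at -1.55 ± 0.10 (5.4e-10) and XBP1 at -1.10 ± 0.09 (1.5e-08). DNAJB9, HERPUD1 and XBP1 passed in opposite directions in the 2 experiments, and so did SDF2L1, with the reverse signs (0.85 ± 0.20, adjusted p = 0.00196). MANF, HSP90B1 and PDIA4 fell in both, by more on MUC1 silencing, with differences of -0.43, -0.84 and -0.48. With library size alone, the difference was -0.23 for MANF (adjusted p = 0.0292) and -0.27 for PDIA4 (adjusted p = 0.00869). CRELD2 rose in both, and its difference of -0.28 (95% interval -0.68 to 0.12, adjusted p = 0.251) did not pass. The vehicle groups of the 2 lines stood further apart than the DOX groups in DNAJB9 (77.3 and 16.9 CPM with vehicle, 28.3 and 29.4 CPM with DOX), HERPUD1 (99.4 and 38.8, then 41.7 and 47.5 CPM) and XBP1 (116 and 57.8, then 72.3 and 77.1 CPM). In SDF2L1 the reverse held, with 10.4 and 8.10 CPM with vehicle and 13.4 and 5.75 CPM with DOX. The 2 lines also differed in passage, MYC fell by less than MUC1 did, and MUC1 itself rose on MYC silencing.

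Among the lists on MYC silencing, 5 of 10 sensors and factors rose and 3 fell (median 0.14), with ERN1 up by 0.65 (adjusted p = 1.9e-04), EIF2AK3 by 0.29 (0.0429) and ATF6 by 0.17 (0.0376), and NFYA down at -0.44. The PERK output had 5 of 8 up and 1 down (median 0.34), with ATF4 at -0.17 (adjusted p = 0.0840), SESN2, a sestrin, at 0.50 and DDIT3 at 0.89. Of the folding factors, 8 of 16 rose and 2 fell (median 0.15), among them ERO1B at 0.68 and HYOU1, an Hsp110 chaperone, at -0.21. Of the translocon list 4 of 16 rose and 5 fell (median 0.11), among them SSR4 at 0.73 and SEC61G at -0.50. ERAD had 8 of 14 up and 3 down (median 0.27), and among those that passed OS9, a lectin of the ERAD ligase complex, was highest at 1.46 and FAF2 lowest at -0.38. OS9 shares 15.9% of its exon bases with a gene on the same strand, so that its counts are less certain. The same holds for DDIT3, with 8.03% shared on the same strand and 31.6% opposite other genes. Its group means were low, at 1.79 to 8.06 CPM. Another gene listed as PERK output shares 49.3% on the same strand.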

How the data were processed

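Total RNA from 21 cultures of BT-549 cells (RNeasy Plus) was made into TruSeq Stranded mRNA libraries and sequenced as paired-end reads. STAR (2.7.3a in the submitters' processing notes) was used by the authors for alignment to GRCh38 and featureCounts for counting, and the deposited values are raw counts per gene. Which annotation and strand setting they used, and how they treated reads mapping to several places, is not given in the sources used here. A gene missing from a block of libraries was read as 0 counts there. No values of the authors' own comparisons were used.

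The members and gene lists were chosen with earlier results of these data known, the lists by function. For each comparison, a model of its 6 libraries was fitted with edgeR 4.0.16 in R 4.3.3 (filterByExpr, TMM factors, quasi-likelihood test, Benjamini-Hochberg adjustment over all genes tested). A gene passed at an adjusted p below 0.1, and a fold rule of an absolute log2 fold change above 1.5, used by the study, was counted beside it. The authors used DESeq2, which was run as an alternative (1.42.0). Differences between comparisons were tested as interactions over 12 libraries. A log2 fold change is given with its SE, and its 95% interval comes from the moderated degrees of freedom. CPM used TMM factors over all 21 libraries. Levels per kb used the union of exons in GENCODE 44. The likeness of other genes to HSPA5 and XBP1 was Pearson's r of log2(CPM + 1) over 21 libraries, among genes with a mean of at least 10 CPM. Named were all members and, in each list, at most the gene with the largest rise and the largest fall among those that passed with a mean of at least 10 CPM, plus ERN1, EIF2AK3, ATF6, ATF4 and DDIT3. NFYA on MUC1 silencing and PPP1R15A with GO-203 were named after their values were seen. Some genes that the rule names are not reported here. Over 21 pairs of replicate libraries, the chi-square divided by its degrees of freedom was 4.36 to 52.8, beyond counting error. The highest values, 52.8 and 36.3, were those of the first DOX-treated tet-MYCshRNA library with the second and the third. No batch or date is given in the labels.

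Counts were also simulated, with the same spread for all genes. Of genes changed by 1 on the log2 scale, 98.0% were recovered for MUC1 silencing (16315 genes) and 97.0% for GO-203 (15736 genes). The share was 81.0% for the difference between MUC1 and MYC silencing and 78.0% for that between MUC1 silencing and GO-203. Alternatives were scaling by RLE factors or library size alone, other count filters, DESeq2, a stricter p, a fit of all 21 libraries, the replicate number as a block, leaving out each library, and another group of mammospheres. Same-numbered libraries did not deviate together in every pair (r between -0.43 and 0.23 over the 4 comparisons), so the numbers were not taken as pairs.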

Additional observations from a re-analysis of the deposited data

Results flagged for a closer look

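Differences between the effects of 2 treatments, each tested as an interaction in edgeR over 12 libraries, passed for 9 of 10 members in both tests that were run, against 52.9% and 44.9% of all genes.

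MUC1 silencing minus MYC silencing differed on the log2 scale by -2.26 for DNAJB9, -1.73 for HSPA5, -1.55 for HERPUD1, -1.10 for XBP1, -0.84 for HSP90B1, -0.84 for EDEM1, -0.48 for PDIA4, -0.43 for MANF and 0.85 for SDF2L1. The silencing experiments differed in the shRNA, in passage, in how far the targeted gene fell and in their vehicle levels, at 2609 and 1111 CPM for HSPA5 and 77.3 and 16.9 CPM for DNAJB9, and MUC1 rose by 1.25 on MYC silencing. These cannot be told apart from the target itself.

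MUC1 silencing minus GO-203 treatment differed by -1.75 for HSPA5, -1.53 for DNAJB9, -1.26 for HSP90B1, -1.23 for HERPUD1, -0.89 for MANF, -0.74 for XBP1, -0.74 for PDIA4, -0.71 for EDEM1 and 0.44 for SDF2L1. The control cells already differed between both experiments, at 2609 CPM of HSPA5 in vehicle-treated tet-MUC1shRNA cells and 1588 CPM in 3D cells. GO-203 was given at 0.75 µmol/L, below the doses that the study states for its immunoblots and qRT-PCR. Agent, dose and control cells cannot be told apart here.

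Groups of 3 libraries were not tested for single libraries far from the others.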

How the results depend on the processing

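With 3 cultures per group, differences as small as those of HSPA5 on MYC silencing sit near the threshold. On MUC1 silencing, the members stayed at 8 down and 2 up under 8 other settings and when any single library was left out. Of the log2 fold changes of members under all alternatives, 959 kept their direction and side of the threshold, 8 lost a call, 5 gained one and 8 reversed. The replicate block changed no call but that of HSPA5 on MYC silencing (-0.15, adjusted p = 0.137), leaving 4 members down there in place of 5. With GO-203 all 3 pairs of libraries correlated best with their own number, a hint from the data only.

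Where the 3D cells were replaced by tet-MUC1shRNA cells with vehicle, XBP1 reversed to 0.38 and SDF2L1 to 0.24 against 2D cells. With 3D cells as the group without silencing, 1 member was higher in place of 2, and CRELD2 reversed to -0.33. With GO-203, a fit of all 21 libraries called 0 members up, and leaving out single libraries gave 1 to 2 members up and 0 to 1 down. Leaving out single libraries also moved DNAJB9 with GO-203 from -0.03 to 0.13, HERPUD1 from -0.08 to 0.01, and the CRELD2 difference between MUC1 silencing and GO-203 from -0.04 to 0.08, none past the threshold. The difference of CRELD2 between MUC1 and MYC silencing passed without the first DOX-treated tet-MYCshRNA library (-0.39, adjusted p = 0.0769). SDF2L1 in 3D vs. 2D cells passed with library size alone (-0.27, adjusted p = 0.0568) and with at least 10 counts in every library (-0.24, adjusted p = 0.0956). Library size alone also moved the median of all genes to 0.25 in the difference between MUC1 and MYC silencing and to 0.15 in that between MUC1 silencing and GO-203, and 10 of 70 group levels by more than 1 SD. The cause of these shifts was not tested.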
